A study of Mus musculus with 6 samples.

Results

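The integrated stress response was followed through 10 genes, Ppp1r15a, Atf4, Atf5, Ddit3, Trib3, Chac1, Asns, Phgdh, Psat1 and Mthfd2, chosen by symbol for their place in that pathway and not by a measured value. They are 10 of the 30828 to 32285 gene rows of the 6 single-cell count tables, and each table holds all 10. In the integrated stress response, kinases that sense misfolded protein, amino acid shortage, heme shortage or viral RNA phosphorylate the translation factor eIF2. Bulk translation then falls while the mRNA of the transcription factor ATF4 is translated more, and ATF4 drives genes for amino acid supply, redox defense and, when stress persists, cell death. Since ATF4 is set largely by translation, the level of Atf4 mRNA is not a readout of ATF4 protein. In FBs, serine and glycine synthesis feeds the making of collagen, which is rich in glycine.

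The study asked how Pdgfra+ fibroblasts (FBs) of mouse lung differ between normal lung and lung with bleomycin-induced fibrosis, and how they affect alveolar epithelium. Bleomycin is a DNA-damaging drug that, given into the airways, leads to lung fibrosis. Each of the 6 conditions was 1 droplet library, so no difference between conditions has a replicate check, and all intervals cover counting error only. Expression was counted as unique molecular identifiers (UMIs) and is given as CPM, a gene's UMIs divided by all UMIs of the cells named and scaled to 1000000.

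The lung libraries held GFP+ cells sorted from Pdgfra-GFP reporter mice, whose reporter is a knock-in at the Pdgfra gene. Barcodes with markers of other cell types were also present, and GFP was not measured in them. The mice were males of 10 to 14 weeks, and each library pooled cells of 3 mice. In the single-dose experiment, mice were given PBS (50 ul) or bleomycin once, and lungs were taken on day 14. For that dose the labels state 2 U/kg in one field (treatment protocol) and 4 U/kg in another (treatment). In the repetitive experiment, mice received 3 weekly doses of PBS or of bleomycin (1 U/kg in the first and second week, 0.5 U/kg in the last), and lungs were again taken on day 14 after the last dose. For the organoids, tomato+ type 2 alveolar epithelial cells (AEC2s) from tamoxifen-induced SpcCreER donors were cultured for 2 weeks in matrigel with GFP+ FBs. The FBs came from mice given PBS (normal organoids) or bleomycin at 2 U/kg (fibrogenic organoids), also 14 days after dosing, and the labels give 10 AEC2s to 1 FB. The study's methods differ from the labels here and put FBs in excess, so which cell was in excess is unclear. The labels name no allele in a stress response gene.

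The shallowest library, single-dose PBS, held 7201081 UMIs, and the deepest, fibrogenic organoids, 238618743. Cells were taken as FBs by summed collagen, Pdgfra and other FB markers, and these FBs were 88.4% and 87.1% (single dose, PBS and bleomycin) and 91.6% and 89.0% (repetitive) of the barcodes that passed the quality filter. The compared FBs were 923 and 830 cells in the single-dose PBS and bleomycin libraries, 5428 and 7570 in the repetitive ones, and 2156 and 4435 in normal and fibrogenic organoids. Their median depths differed, at 6781 and 11427.5 UMIs per cell (single dose), 10514.5 and 3786 (repetitive) and 48628 and 5914 (organoids). The part of these depth gaps in the ratios was not tested beyond the alternatives given in the closing section. The libraries of a pair shared 2, 28 and 13 barcodes, few enough that no cell was removed for it. The experiments differ in depth and in gene rows, so levels from different experiments are only set side by side.

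The genes lie on 7 chromosomes of the mouse genome (GRCm38, GENCODE vM21). Ppp1r15a (chromosome 7, 45522916 to 45526268) and Atf5 (chromosome 7, 44812256 to 44816658) are on the minus strand. Atf4 is on chromosome 15 (80255184 to 80257541) and Ddit3 on chromosome 10 (127290774 to 127296288), both on the plus strand. Trib3 (152337422 to 152344032, minus strand) and Chac1 (119351229 to 119354381, plus strand) are on chromosome 2, while Asns (7675169 to 7693254) and Mthfd2 (83305691 to 83325908) are on chromosome 6, both on the minus strand. Phgdh is on chromosome 3 (98313170 to 98339990) and Psat1 on chromosome 19 (15904678 to 15947337), both on the minus strand. The annotation holds a second gene named Ddit3 that overlaps the first, from 127290829 to 127293753, and in the 4 tables with 32285 rows a second Ddit3 row is at 0, so reads of the overlap could have been left out of the Ddit3 count.

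ATF4 binds DNA as a dimer with C/EBP proteins at the C/EBP-ATF response element, searched here as TGATGNAA on both strands. The cAMP response element, to which the related ATF and CREB factors bind, was searched as TGACGTCA, which reads the same on both strands. Promoters were the RefSeq windows from 250 bases before to 50 bases after each start site (GRCm38.p6), and all 10 genes had one. The first motif was in 3 of the 10, those of Trib3, Chac1 and Asns, against 4.51% of the 27025 genes with a promoter (3.97% of all 32851 promoters). The second was in that of Ppp1r15a alone among the 10, against 2.03% of genes (1.79% of promoters). A match is a run of letters and not evidence of binding, and no match says only that these letters were not in the window. The matches are shown because Asns and Ppp1r15a took opposite directions in lung FBs. The motif is in capitals, and no match of one motif overlapped a match of the other. The Asns match began 23 bases before the start site (chr6:7693214-7693243, minus strand, which is the gene's strand), and that of Ppp1r15a began 12 bases before it (chr7:45526262-45526291, minus strand, also the gene's). The Trib3 match lay 14 to 21 bases after the start site (chr2:152344028-152344057, plus strand, opposite to the gene). The Chac1 match lay 186 to 193 bases before it (chr2:119351038-119351067, minus strand, opposite to the gene). All distances are from RefSeq start sites, which can differ from the GENCODE gene ends given above. By the GENCODE positions the Asns match lay inside the gene and the Trib3 match before the start of its gene.
Asns: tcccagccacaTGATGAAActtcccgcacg
Trib3: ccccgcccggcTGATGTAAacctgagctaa
Chac1: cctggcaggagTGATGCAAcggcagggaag
Ppp1r15a: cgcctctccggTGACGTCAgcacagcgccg

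In lung FBs after a single dose of bleomycin, the amino acid and one-carbon enzymes were higher than in the PBS library, while the eIF2 phosphatase subunit Ppp1r15a and the transcription factor Atf5 were lower. Asns was 11.8-fold higher, and Psat1, Mthfd2, Trib3 and Phgdh were 2.15- to 3.14-fold higher. Ppp1r15a was 2.94-fold lower and Atf5 2.31-fold lower, whereas Atf4 and Ddit3 stayed within 2-fold. After 3 doses Asns was 8.09-fold higher, Chac1, Phgdh and Mthfd2 were past 2-fold higher, and Ppp1r15a was 2.35-fold and Atf5 2.14-fold lower. Psat1 (log2 ratio 0.52) and Trib3 (0.17) were within 2-fold after 3 doses, and the difference between the experiments was not tested. The plot of levels in lung FBs shows each gene in the 4 lung libraries.

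**Figure D1:**
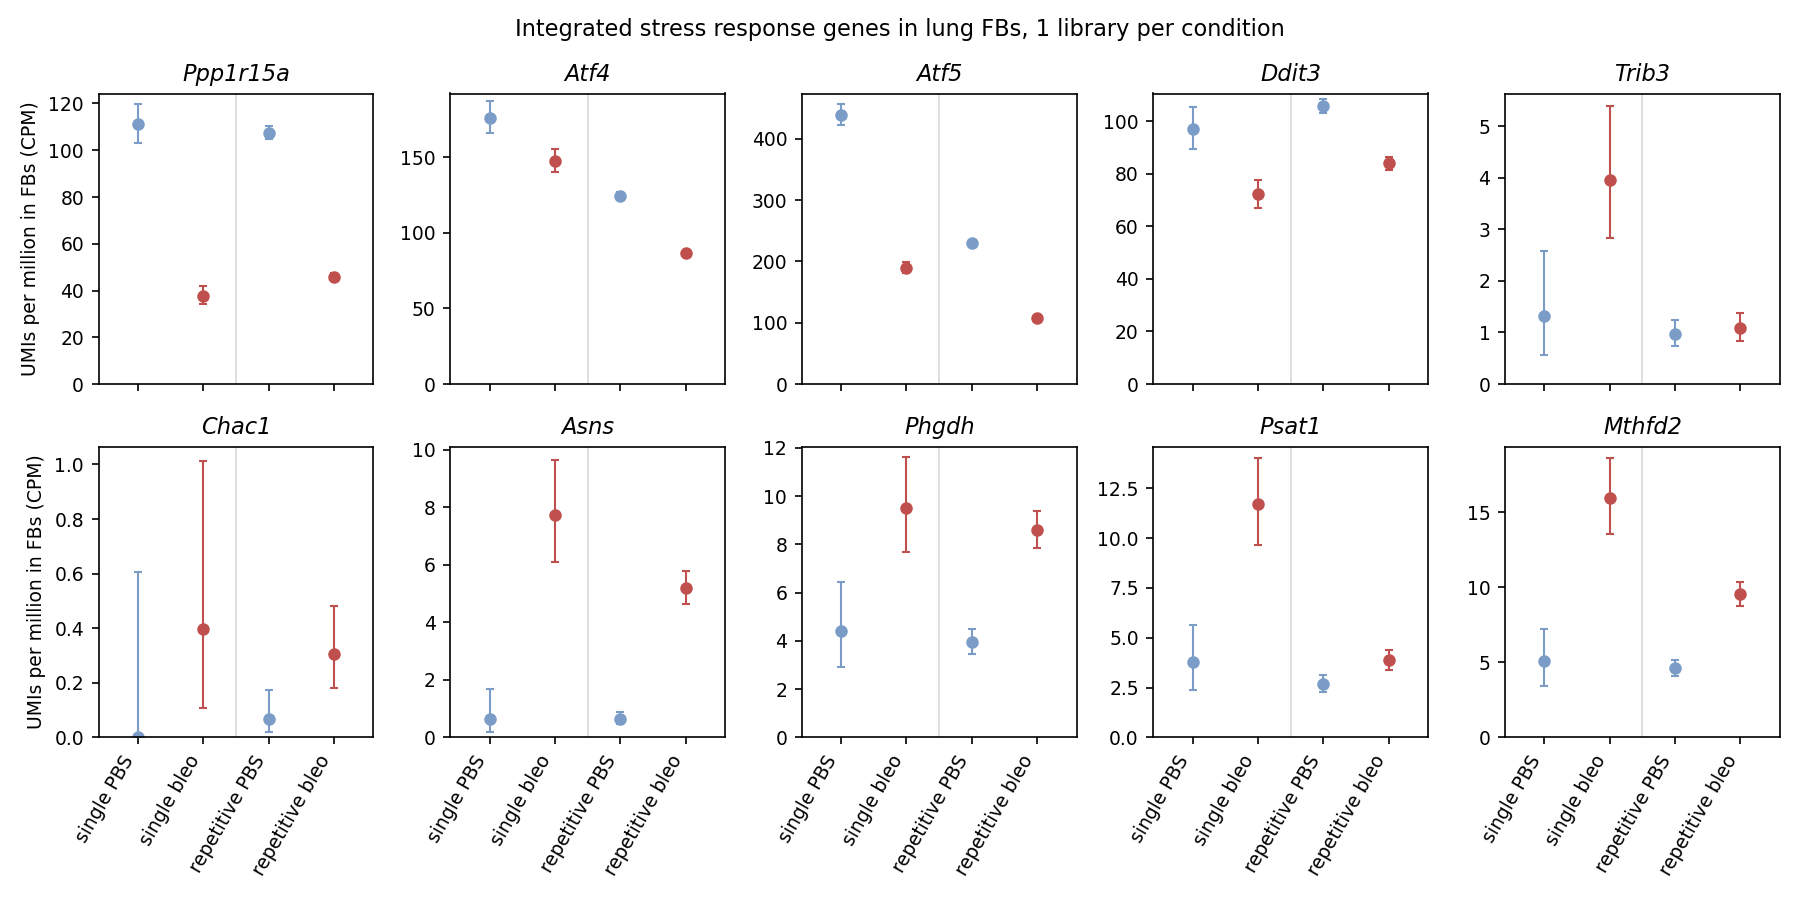
Level of each gene in the FBs of the 4 lung libraries (CPM, linear axes starting at 0). Points are single libraries (blue PBS, red bleomycin) and bars are 95% Poisson intervals of counting error. Asns was 0.656 and 0.641 CPM in the PBS libraries and 7.72 and 5.19 CPM in the bleomycin libraries, while Ppp1r15a was above 100 CPM with PBS and below 50 CPM with bleomycin.

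Among the transcription factors, Atf4, the central factor of the response, was 176 CPM (95% interval 166 to 187) in the single-dose PBS FBs and 148 CPM (140 to 155) in the bleomycin FBs. In the repetitive experiment Atf4 was 124 CPM (121 to 127) and 86.3 CPM (83.9 to 88.7). Bleomycin over PBS gave a log2 ratio for Atf4 of −0.25 (−0.37 to −0.14) and −0.52 (−0.58 to −0.47), lower in the bleomycin library of each pair but within 2-fold. Atf5, a related factor that is also under translational control, was 440 CPM (423 to 457) with PBS and 190 CPM (182 to 199) after a single dose. Atf5 was 230 CPM (226 to 234) and 108 CPM (105 to 110) in the repetitive pair, and its log2 ratios were −1.21 (−1.30 to −1.13) and −1.09 (−1.14 to −1.05). Atf5 was thus past 2-fold lower in each experiment. Ddit3, which encodes CHOP, a factor tied to stress-induced cell death, was 97.0 and 72.1 CPM in the single-dose pair and 106 and 83.9 CPM in the repetitive pair. Its log2 ratios were −0.43 (−0.59 to −0.27) and −0.33 (−0.39 to −0.28), again lower in the bleomycin libraries and within 2-fold.

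Ppp1r15a encodes GADD34, the subunit that recruits a phosphatase to eIF2 and so ends the response. It was 111 CPM (103 to 120, 679 UMIs) in single-dose PBS FBs and 37.8 CPM (34.1 to 41.8, 382 UMIs) in bleomycin FBs. In the repetitive pair it was 108 CPM (105 to 110) and 45.8 CPM (44.1 to 47.6). The log2 ratios were −1.56 (−1.74 to −1.37) and −1.23 (−1.30 to −1.17), and the intervals of the PBS and bleomycin libraries did not overlap in either pair. Its level also moved with that of immediate early genes, as described further on.

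Trib3 encodes a pseudokinase that is induced by ATF4 and CHOP and dampens them, and Chac1 encodes an enzyme that breaks down glutathione. Both were sparse in lung FBs. Trib3 had 8 UMIs (1.31 CPM) in the single-dose PBS FBs and 40 UMIs (3.96 CPM) in the bleomycin FBs, a log2 ratio of 1.59 (0.48 to 2.90). Of those 40 UMIs, 11 were in a single cell, and without it the Trib3 ratio was 1.13 (−0.03 to 2.47), an interval that includes 0. In the repetitive pair Trib3 was 0.962 and 1.09 CPM, with a log2 ratio of 0.17 (−0.36 to 0.72). Chac1 had 0 and 4 UMIs in the single-dose pair, too few for a ratio. It had 4 and 18 UMIs in the repetitive pair, a log2 ratio of 2.18 (0.58 to 4.20), and the 18 UMIs lay in 17 barcodes. With 1 CPM added to each level, the Chac1 ratio was 0.29, within 2-fold.

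Asns, which makes asparagine from aspartate and glutamine, had 4 UMIs in the 923 single-dose PBS FBs and 78 UMIs in the 830 bleomycin FBs. In the repetitive pair Asns had 38 UMIs in 5428 FBs and 306 UMIs in 7570 FBs. The log2 ratios were 3.56 (2.14 to 5.47) and 3.02 (2.53 to 3.54). The bleomycin Asns UMIs lay in 55 and 223 barcodes, with at most 5 and 10 in a barcode. Free RNA in the droplets was not estimated, so these are barcodes with a UMI and not a count of expressing cells. In the myeloid cells of the same libraries, Asns was 3.73 CPM (0.452 to 13.5, 2 UMIs) and 3.15 CPM (1.51 to 5.80, 10 UMIs), against 7.72 and 5.19 CPM in FBs, and the intervals of myeloid cells and FBs overlapped in each library. After 3 doses Asns was above its FB level in B and plasma cells, at 13.9 CPM (8.83 to 20.9, 23 UMIs), and in smooth muscle and mural cells, at 39.7 CPM (21.1 to 67.9, 13 UMIs). With 1 CPM added to each level, a setting that draws ratios of sparse genes toward 0, the Asns log2 ratios were 2.40 and 1.91, still past 2-fold. Its ratio was above that of 98.7% and 97.7% of all genes tested.

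Phgdh and Psat1 encode the first and second enzymes of serine synthesis, and Mthfd2 a mitochondrial enzyme of the folate cycle that uses serine. Phgdh was 4.42 CPM (2.92 to 6.44) and 9.50 CPM (7.70 to 11.6) in the single-dose pair and 3.96 CPM (3.47 to 4.51) and 8.58 CPM (7.85 to 9.36) in the repetitive pair. Its log2 ratios were 1.10 (0.47 to 1.78) and 1.11 (0.89 to 1.34). Psat1 was 3.77 and 11.7 CPM, then 2.70 and 3.87 CPM, with log2 ratios of 1.63 (0.98 to 2.34) and 0.52 (0.22 to 0.82), so it was past 2-fold in the single-dose pair alone. Mthfd2 was 5.08 and 15.9 CPM, then 4.59 and 9.55 CPM, with log2 ratios of 1.65 (1.09 to 2.25) and 1.06 (0.85 to 1.27). With 1 CPM added to each level, the Phgdh ratio was 0.95 in both pairs and that of Mthfd2 was also below 1 after 3 doses, so those calls past 2-fold were lost. All 4 enzymes, Asns included, were higher in the bleomycin library of each pair with an interval above 0.

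**Figure D2:**
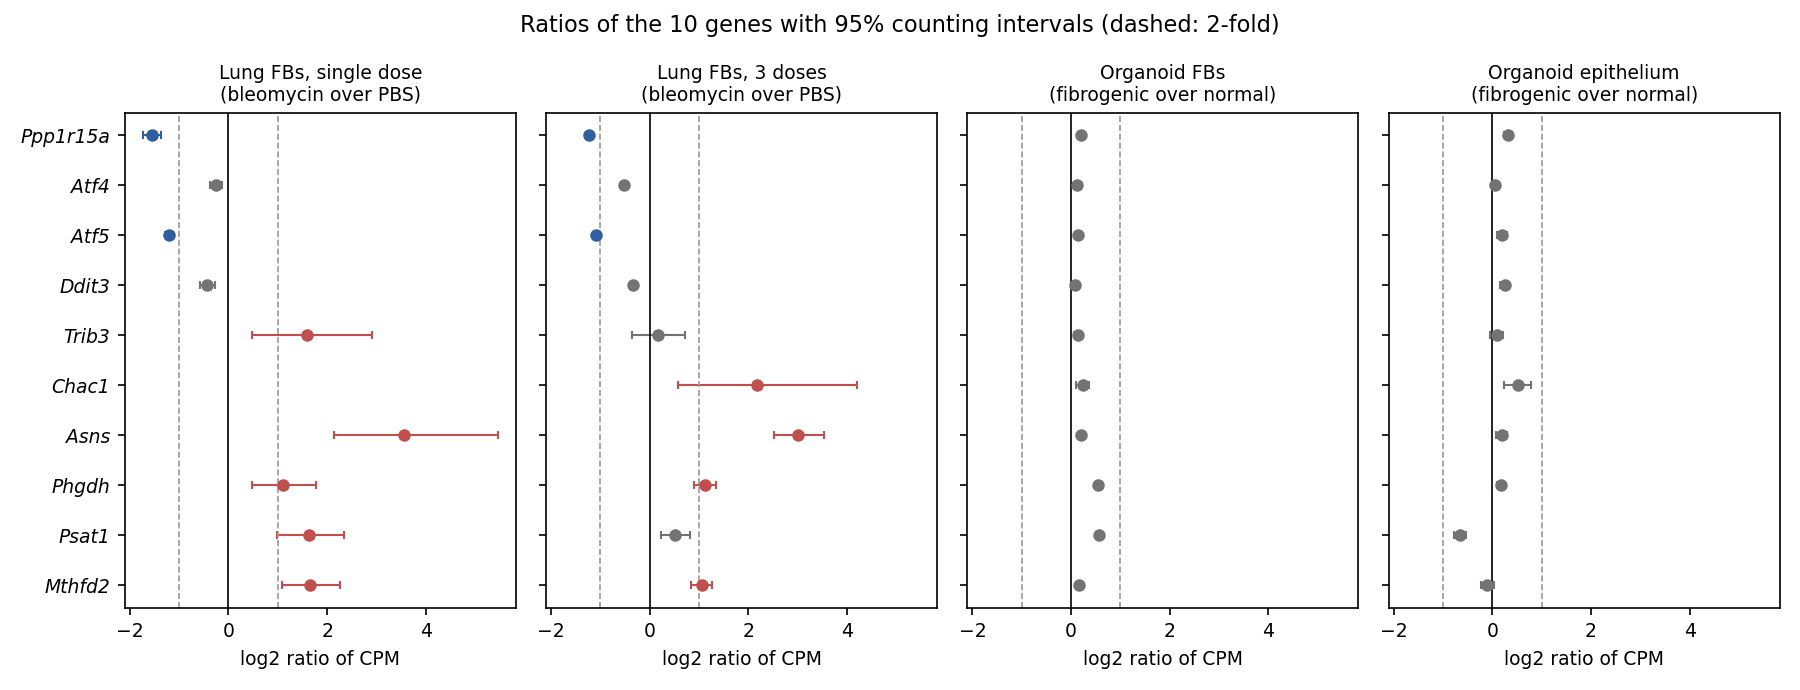
Log2 ratio of CPM for each gene in lung FBs (bleomycin over PBS) and in organoid FBs and epithelium (fibrogenic over normal). Points are 1 library over 1 library, bars are 95% counting intervals, dashed lines mark 2-fold, and red, blue and gray stand for past 2-fold higher, past 2-fold lower and within 2-fold. In the lung, Ppp1r15a and Atf5 lie left of −1 in both experiments and Asns near 3, while no gene passes 2-fold in the organoids.

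Counted over the list, 5 of 9 members with at least 20 UMIs were past 2-fold higher in single-dose bleomycin FBs (11.4% of all 12021 genes tested) and 2 were past 2-fold lower (4.77% of all genes). In the repetitive pair, 4 of 10 were higher (13.5% of 17235 genes) and 2 lower (4.25%). The members' median log2 ratio was 1.10 and 0.35, beside 0.09 and 0.13 over all genes tested. The members nearest the 2-fold limit were Mthfd2 at 1.06, Atf5 at −1.09 and Phgdh at 1.11 in the repetitive pair, all past it, and the next below it were Psat1 at 0.52 and Atf4 at −0.52.

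Other genes of the pathway lay on both sides of 0. Of all genes, 11.4% and 13.5% were past 2-fold higher and 4.77% and 4.25% lower in the single-dose and repetitive pairs. The 15 upstream genes measured in the single-dose pair, the eIF2 kinases, eIF2 and eIF2B subunits and their regulators, had none past 2-fold, from Eif2ak2 (the kinase PKR) at 0.95 to Eif2b3 at −0.77, with a median of 0.23. Of 16 in the repetitive pair none was past 2-fold either, from Eif2ak2 at 0.55 to Impact at −0.59, with a median of 0.12. Of other genes reported as ATF4 targets, 5 of 26 were higher and 1 lower after a single dose, from Slc7a5, a transporter of large amino acids, at 3.29 to Atf3, a stress-induced repressor, at −2.32. After 3 doses 5 of 30 were higher and 3 lower, from Bcat1, which transfers amino groups of branched amino acids, at 2.55 to Atf3 at −1.90. The medians of these targets were 0.04 and −0.04, close to those of all genes.

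Among 12 and 14 further genes of serine and one-carbon metabolism, 2 and 1 were past 2-fold higher (11.4% and 13.5% of all genes) and none lower (4.77% and 4.25%). Aldh1l2, the mitochondrial enzyme that oxidizes formyl-folate, was highest in both pairs at 2.80 and 2.12, and Mthfd1 (−0.70) and Shmt1 (−0.71), which act in the cytosol, were lowest. None of the 17 cytosolic tRNA synthetases was past 2-fold. In each pair 14 of 17 were above 0, where the median of all genes tested was above 0 too (0.09 and 0.13). They ran from Tars at 0.73 to Hars at −0.33 and from Tars at 0.61 to Eprs at −0.78. None of 21 genes of the other arms of the unfolded protein response was past 2-fold. The highest was Calr, a chaperone of the endoplasmic reticulum, at 0.80 and 0.91, and the lowest were Herpud1 at −0.87 and Atf6 at −0.91.

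Immediate early genes such as Fos and Jun rise within minutes of cell dissociation, so their share was measured in every FB as UMIs of 17 such genes per 10000, a list that holds none of the 10 members. The median share was 103.9 in single-dose PBS FBs and 42.0 in bleomycin FBs, and 160.8 and 65.2 in the repetitive pair. Of the 17 genes, 15 were past 2-fold lower in the single-dose bleomycin FBs and 4 in the repetitive ones (4.77% and 4.25% of all genes), with medians of −1.23 and −0.74. The list ran from Ier3 at 0.44 to Hspa1a at −2.18, and from Hspa1b at 0.69 to Nr4a1 at −1.52. The FBs were therefore split into low, middle and high groups at the shares that divide the PBS FBs of that experiment into equal numbers, a split added after the data were seen.

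The groups were matched on this share and not on FB subset. In the high single-dose groups the median LipoFB markers per 10000 UMIs were 113 with PBS and 12.8 with bleomycin (46 cells), and the median MatrixFB markers 10.2 and 90.0, so the ratios there set unlike FBs side by side. In the other 5 groups too the median LipoFB markers were lower and MatrixFB markers higher with bleomycin, and the part of this in the ratios was not tested.

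Ppp1r15a followed this share closely. In single-dose PBS FBs it was 22.8, 82.7 and 212 CPM in the low, middle and high groups, and in repetitive PBS FBs 13.5, 101 and 185 CPM. The bleomycin FBs showed the same order, with 15.3, 54.1 and 189 CPM and with 11.0, 46.9 and 155 CPM. Within the groups the log2 ratio for Ppp1r15a, again bleomycin over PBS, came to −0.58 (−1.14 to 0.01), −0.61 (−0.90 to −0.33) and −0.17 (−0.59 to 0.23) after a single dose. After 3 doses it was −0.29 (−0.56 to −0.03), −1.10 and −0.25 (−0.35 to −0.16), so it was past 2-fold in 1 of 6 groups, where 4.96% (single dose, middle), 6% (low) and 8.99% (high), then 4.79%, 5.15% and 3.76% (repetitive low, middle and high) of all genes were past 2-fold lower. Without the split Ppp1r15a had been past 2-fold in both experiments. The paper sets some of its PBS LipoFB clusters apart by genes that include Fos, Jun and Ppp1r15a. It also reports lower Ppp1r15a in its LipoFBs of fibrotic lung. Whether the share reflects dissociation or the state of the FBs, and its part in the lower Ppp1r15a, was not tested. Ppp1r15a also differed by subset, at 175 CPM in MatrixFBs and 101 CPM in LipoFBs of the single-dose PBS library, and 80.4 and 25.4 CPM of the bleomycin library. In the repetitive libraries the subsets were closer, at 122 and 105 CPM with PBS and 46.6 and 46.2 CPM with bleomycin.

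Trib3 was 0, 1.37 and 2.32 CPM (0, 3 and 5 UMIs) over the single-dose PBS groups, with overlapping intervals. Over the single-dose bleomycin groups it was 1.70 (0.777 to 3.22), 6.45 (4.32 to 9.27) and 6.51 CPM (9, 29 and 2 UMIs), lowest where the share was low. Of the 29 UMIs, 11 were in the single cell named above, and neither this order nor the middle group's ratio was computed without it. After 3 doses Trib3 did not follow the share, at 0.804, 1.26 and 0.787 CPM with PBS (13, 27 and 17 UMIs) and 0.751, 1.45 and 0.813 CPM with bleomycin. In the middle single-dose group, with that single cell included, the Trib3 log2 ratio was 2.23 (0.54 to 4.59). After 3 doses its ratios were −0.10, 0.20 and 0.05, with intervals that included 0. Chac1 had at most 11 UMIs in any of these groups. No difference between members was tested. Atf4 rose over the groups in the repetitive pair, at 89.0, 127 and 148 CPM with PBS and 72.6, 94.2 and 102 CPM with bleomycin, but was 181, 180 and 168 CPM in single-dose PBS FBs. In the high single-dose group, with 46 bleomycin FBs, the ratios of Atf4 (0.06) and Ddit3 (0.37) were above 0, with intervals that included 0 for Atf4 (−0.38 to 0.48) and for Ddit3 (−0.23 to 0.93). Phgdh was 0 (0 UMIs, where 3 UMIs would be 1.71 CPM), 5.03 and 7.41 CPM in the low, middle and high groups of single-dose PBS FBs, so its level also rose with the share there, and 3.21, 4.28 and 4.21 CPM in repetitive PBS FBs. With bleomycin Phgdh was 4.75-fold higher in the low single-dose group with 3 UMIs put in place of 0. Its log2 ratios were 0.99 (0.02 to 2.09) and 1.81 (0.38 to 3.12) in the middle and high ones, and 1.20, 1.19 and 0.93 after 3 doses. Psat1 was 3.42, 2.74 and 5.09 CPM in single-dose PBS FBs, with overlapping intervals. Its ratios were 1.65 and 2.26 in the low and middle single-dose groups, and 0.18 (−0.40 to 0.78), 0.72 and 0.52 (−0.18 to 1.20) after 3 doses. Atf5 was 446, 454 and 420 CPM over the groups of the single-dose PBS FBs and fell with the share in repetitive PBS FBs, at 273 (265 to 281), 224 (218 to 230) and 204 CPM (198 to 210). Its within-group log2 ratios were −1.38, −1.11 and −0.97, then −1.36, −1.04 and −0.92 after 3 doses. Every interval of those Atf5 ratios was below 0. Asns was higher with bleomycin within the low (2.76, from 2 and 41 UMIs) and middle (0 and 34 UMIs, 5.52-fold with 3 UMIs put in place of 0) single-dose groups, and had 2 and 3 UMIs in the high group. In the repetitive groups its log2 ratios were 2.68 (1.63 to 3.94), 3.47 (2.69 to 4.36) and 2.50 (1.59 to 3.47). Mthfd2 was 3.42, 3.20 and 8.34 CPM over the single-dose PBS groups, with overlapping intervals, and 15.8, 15.8 and 19.5 CPM over the bleomycin groups. Its log2 ratios were 2.21, 2.30 and 1.23 (−0.39 to 2.62) after a single dose and 0.66, 1.17 and 0.89 after 3 doses, and of these 6 intervals the one printed included 0.

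**Figure D3:**
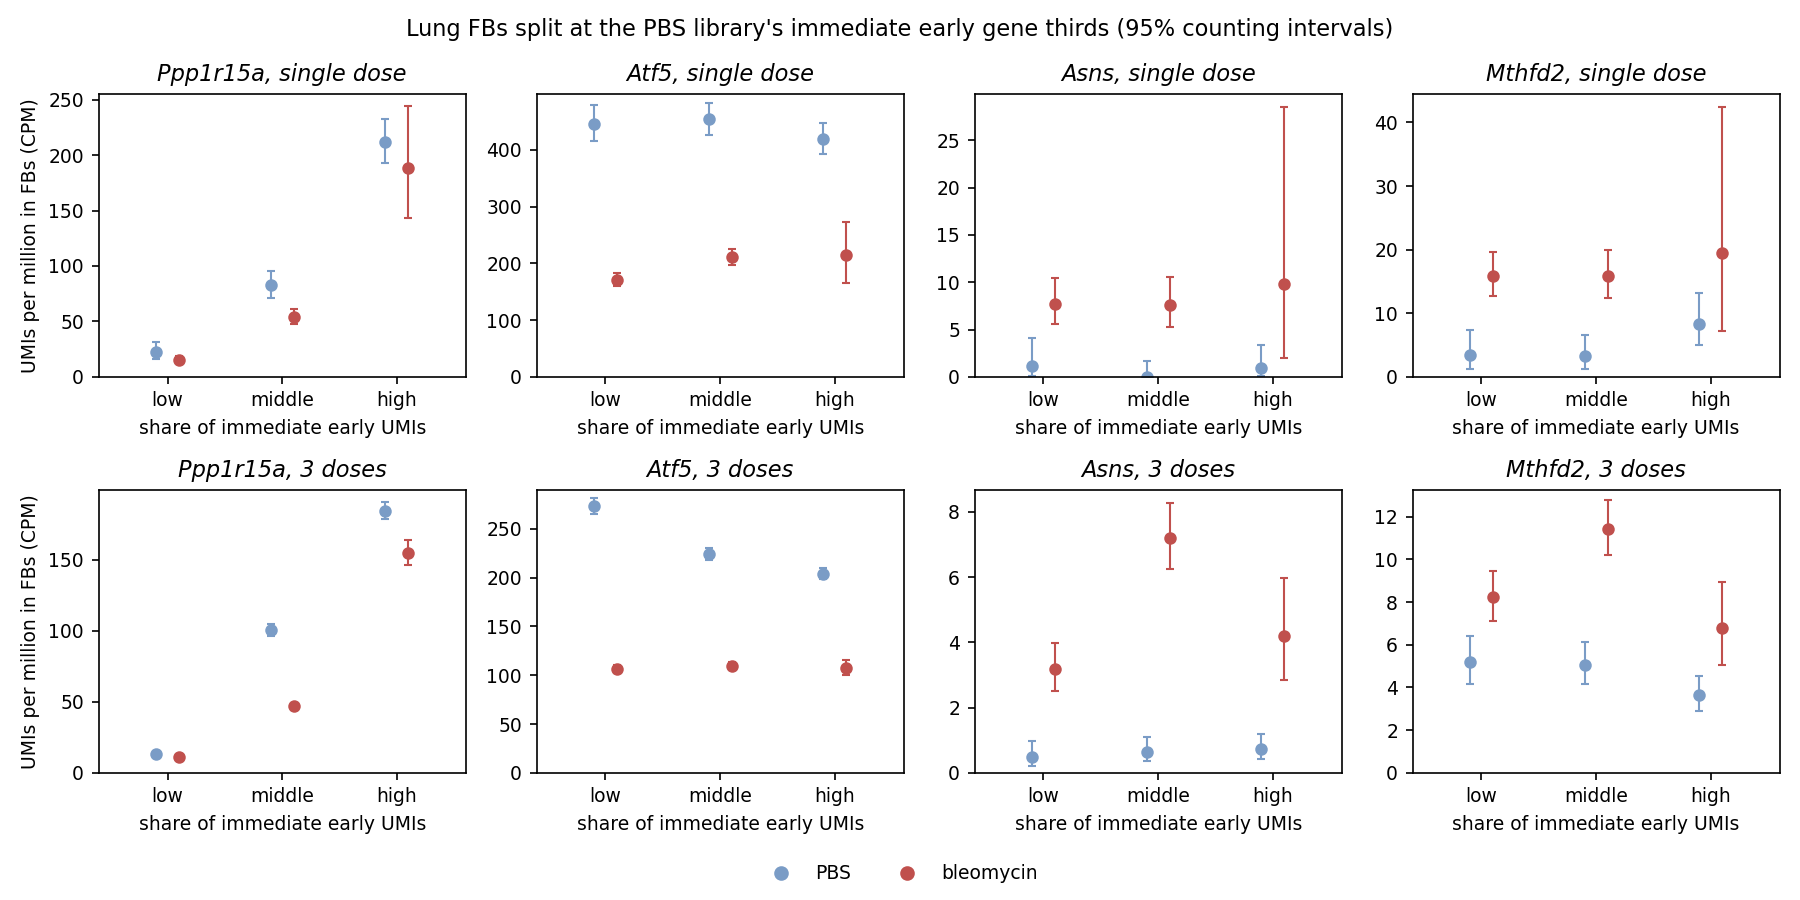
Levels of Ppp1r15a, Atf5, Asns and Mthfd2 (CPM, linear axes starting at 0) in lung FBs grouped by their share of immediate early UMIs, for the single-dose (top) and repetitive (bottom) libraries. Points are summed cells of 1 library (blue PBS, red bleomycin) with 95% Poisson intervals. Ppp1r15a climbed from 22.8 to 212 CPM across the single-dose PBS groups, while Atf5 was between 420 and 454 CPM there, fell from 273 to 204 CPM across the repetitive PBS groups, and was lower with bleomycin in every group.

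FBs were next divided by markers into lipofibroblasts (LipoFBs, alveolar FBs with lipid droplets), MatrixFBs (also called adventitial FBs) and myofibroblasts (MyoFBs, contractile and matrix-producing). LipoFBs were 85.6% of FBs with PBS and 35.5% after a single dose, and 82.3% and 37.4% in the repetitive pair. MatrixFBs were 10.6% and 21.9%, then 16.0% and 37.6%. MyoFBs were 2 cells in each PBS library, and 8.67% and 2.11% of FBs after a single dose and after 3 doses. These gates are ranges of a marker sum. In the repetitive bleomycin library 1598 of the 7570 FBs lay close to the LipoFB limit, from 20% below to 25% above it, and 897 to the MatrixFB limit. The paper reports lower LipoFB markers in injured LipoFBs, so FBs may have changed gate with bleomycin. Its LipoFBs of PBS and bleomycin lung also fell into separate clusters, so cells of the same gate can be unlike between libraries. The part of this in the shares and in the ratios by subset was not tested. No member of the list is a gating marker.

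Of the members with a ratio, Phgdh differed most between MatrixFBs and LipoFBs in all 4 libraries. In LipoFBs it was 0.759 CPM (4 UMIs) and 1.31 CPM (66 UMIs) in the single-dose and repetitive PBS libraries, whereas in MatrixFBs it was 31.3 CPM (18.9 to 48.9, 19 UMIs) and 19.5 CPM (16.6 to 22.8, 157 UMIs). The Phgdh log2 ratio of MatrixFBs over LipoFBs was 5.37 (3.78 to 7.38) and 3.89 (3.47 to 4.33) with PBS, and 3.56 (2.38 to 4.97) and 2.69 (2.31 to 3.10) with bleomycin. Within MatrixFBs, bleomycin over PBS gave −0.37 (−1.21 to 0.51) and −0.17 (−0.46 to 0.12) for Phgdh, intervals that include 0. Within LipoFBs it was 1.03 (0.52 to 1.54) after 3 doses, and 4 and 7 UMIs after a single dose were too few for a ratio. The Phgdh ratio of the whole FB sums therefore stands beside a larger share of FBs in the MatrixFB gate in the bleomycin libraries. How much of the ratio that share gives was not tested.

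Asns was also higher in MatrixFBs than in LipoFBs in the repetitive pair, with log2 ratios of 3.40 (2.35 to 4.51) with PBS and 1.55 (1.05 to 2.07) with bleomycin. Unlike Phgdh, Asns was higher with bleomycin inside each subset that could be compared. In LipoFBs it was 13 and 52 UMIs after 3 doses, a log2 ratio of 2.98 (2.09 to 3.98), and in MatrixFBs 22 and 94 UMIs, a ratio of 1.13 (0.45 to 1.88). After a single dose the Asns counts were 1 and 10 UMIs in LipoFBs and 2 and 9 UMIs in MatrixFBs, below the 20 UMIs needed for a ratio. Trib3, with 34 and 20, then 14 and 32 UMIs, was higher in MatrixFBs than in LipoFBs as well, at 1.88 (1.00 to 2.72) with PBS and 1.89 (0.95 to 2.91) with bleomycin in the repetitive pair.

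Ppp1r15a was lower with bleomycin in each subset, at −1.99 (−2.34 to −1.66) and −1.18 (−1.27 to −1.09) in LipoFBs and −1.12 (−1.51 to −0.73) and −1.38 (−1.53 to −1.24) in MatrixFBs. Atf5 was lower by a log2 ratio of −0.98 (−1.10 to −0.87) and −1.17 (−1.23 to −1.11) in LipoFBs, and by −0.33 (−0.63 to −0.03) and −0.46 (−0.55 to −0.36) in MatrixFBs. Atf5 was thus past 2-fold lower in LipoFBs after 3 doses alone. Mthfd2 was 1.82 (1.04 to 2.66) and 0.84 (0.54 to 1.14) in LipoFBs and 0.31 (−0.88 to 1.67) and 0.31 (−0.12 to 0.75) in MatrixFBs. Psat1 was 1.02 (0.10 to 1.96) and 0.50 (0.05 to 0.94) in LipoFBs, and in MatrixFBs 0.91 (−0.68 to 2.93) and −0.66 (−1.24 to −0.08).

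Of the members with a ratio, 2 of 7 and 5 of 9 were past 2-fold higher in MatrixFBs than in LipoFBs in the single-dose and repetitive PBS libraries (8.52% and 9.94% of all genes), and 2 of 7 and 3 of 9 in the bleomycin libraries (7.83% and 8.87%). Lower in MatrixFBs was 1 member, Atf5 at −1.01 (−1.27 to −0.77) with single-dose PBS (12.5% of all genes), and none in the other 3 libraries (9.6%, 11% and 8.34%). For bleomycin over PBS within LipoFBs, 2 of 6 members were past 2-fold higher (6.56% of all genes) and 1 lower (4.75%) after a single dose, and 2 of 9 higher (9.48%) and 2 lower (4.16%) after 3 doses. Within MatrixFBs the counts were 0 of 7 higher (7.61%) and 1 lower (4.45%), then 1 of 9 higher (6.22%) and 1 lower (2.71%).

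MyoFBs of the bleomycin libraries had more Asns than their LipoFBs. Asns was 11.1 CPM (5.93 to 19.1, 13 UMIs) in the 72 MyoFBs after a single dose and 14.7 CPM (10.1 to 20.7, 33 UMIs) in the 160 MyoFBs after 3 doses, against 2.92 and 2.04 CPM in LipoFBs. The Asns log2 ratios were 1.93 (0.63 to 3.28) and 2.85 (2.17 to 3.50). FBs that met none of the 3 gates held most of the Asns UMIs after a single dose, 45 of 78 in 264 cells, at 12.3 CPM (8.98 to 16.5), a level whose interval overlapped that of MyoFBs. After 3 doses they held 108 of 306 UMIs in 1702 cells, at 7.21 CPM (5.92 to 8.71), below MyoFBs. After 3 doses Phgdh, at 1.59 (0.75 to 2.35), and Mthfd2, at 1.24 (0.69 to 1.75), were higher too. Atf5 was lower in MyoFBs, at −1.27 (−1.56 to −0.98) and −0.79 (−1.05 to −0.54), as was Ddit3, at −0.52 (−0.95 to −0.11) and −0.80 (−1.09 to −0.52). In all, 1 of 7 members was past 2-fold higher (6.26% of 9860 genes) and 1 lower (10.4%) after a single dose, and 3 of 8 were higher (7.19% of 13962 genes) and none lower (13.5%) after 3 doses.

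**Figure D4:**
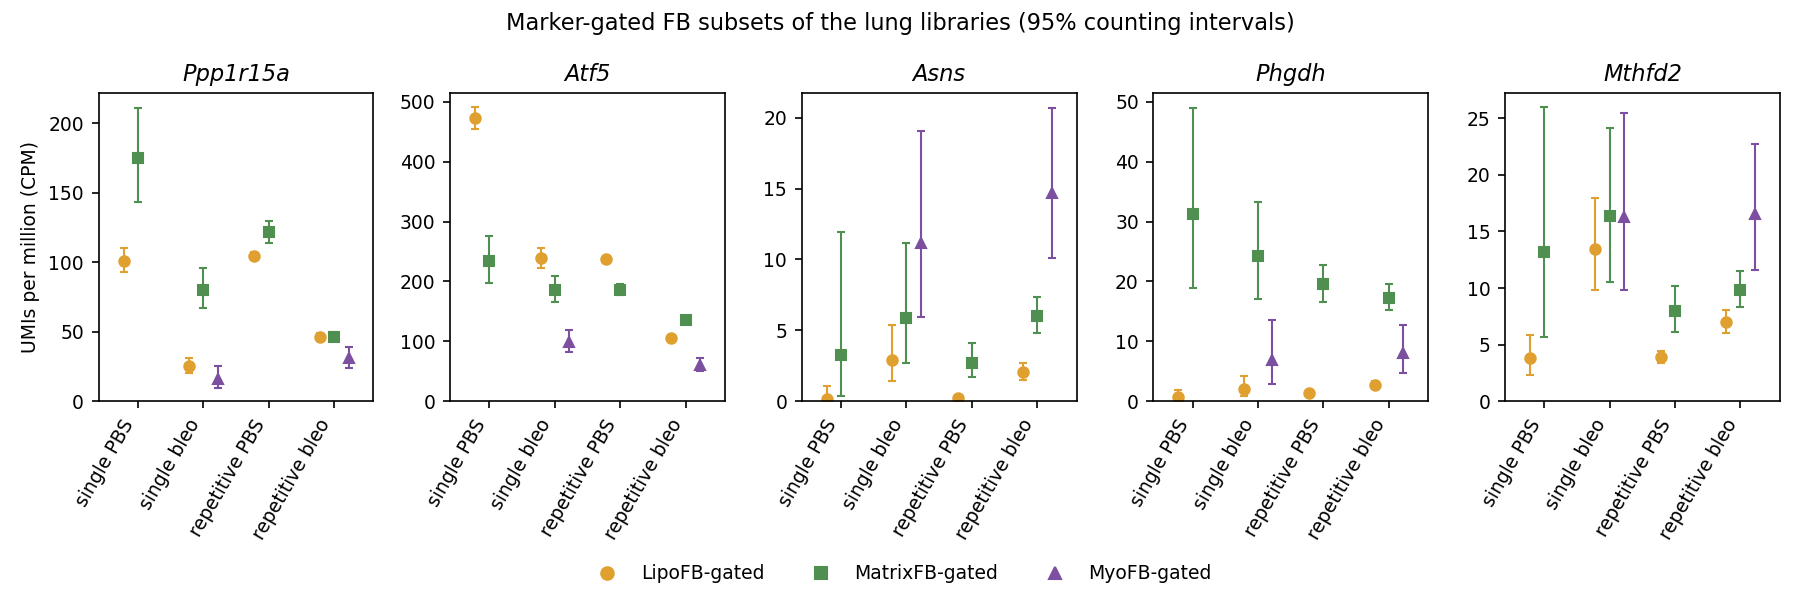
Levels of Ppp1r15a, Atf5, Asns, Phgdh and Mthfd2 (CPM, linear axes starting at 0) in LipoFBs (orange circles), MatrixFBs (green squares) and MyoFBs (purple triangles, bleomycin libraries only) of the 4 lung libraries. Bars are 95% Poisson intervals. Phgdh was 17.3 to 31.3 CPM in MatrixFBs of all 4 libraries and 0.759 to 2.67 CPM in LipoFBs, and of these 3 subsets Asns was highest in MyoFBs of both bleomycin libraries, with an interval that overlapped that of MatrixFBs after a single dose. FBs of no subset, not plotted, had 12.3 and 7.21 CPM of Asns there.

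Few cells of other types passed the sort, and they allow a look at Ppp1r15a outside FBs. In the myeloid cells Ppp1r15a was 208 CPM (167 to 256, 39 cells) with PBS and 33.6 CPM (19.9 to 53.1, 45 cells) after a single dose, and 117 CPM (101 to 136) and 53.3 CPM (45.6 to 62.0) in the repetitive pair. In endothelial cells it was 135 CPM (99.0 to 180, 40 cells) and 66.8 CPM (37.4 to 110, 12 cells), then 154 and 128 CPM. Ppp1r15a was thus lower in the bleomycin library in these cells as well. The intervals did not overlap in the myeloid cells and overlapped in the endothelial cells of both pairs. In T cells Ppp1r15a was 141 and 16.7 CPM (15 and 2 UMIs) in the single-dose pair, but 50.2 and 46.9 CPM (20 and 19 UMIs) in the repetitive pair. The immediate early share of these cell types is not given here. Asns in endothelial cells was 11.3 CPM (21 UMIs) with PBS and 5.73 CPM (3 UMIs) after 3 doses of bleomycin, and the 2 intervals overlapped.

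In organoids the members of the list were measured with many more UMIs, and none of the 10 was past 2-fold between fibrogenic and normal organoids, in FBs (2.27% of 17877 genes past 2-fold higher, 3.73% lower) or in epithelium (3.1% of 16439 genes higher, 1.03% lower). In organoid FBs the summed counts of all 10 were slightly higher in the fibrogenic library, with a median log2 ratio of 0.18 beside −0.02 over all genes. With each cell given equal weight, Mthfd2 (−0.27), Trib3 (−0.20), Ddit3 (−0.17) and Chac1 (−0.02) turned below 0, so for these 4 no direction is given. Phgdh was 105 CPM (103 to 106) and 153 CPM (151 to 155), a log2 ratio of 0.55 (0.52 to 0.58), and Psat1 was 40.6 CPM (39.4 to 41.8) and 60.4 CPM (59.2 to 61.6), a ratio of 0.57 (0.52 to 0.63). The other 8 members lay between 0.07 (Ddit3) and 0.24 (Chac1). Asns, the gene with the largest ratio in lung FBs, was 121 CPM (119 to 123) and 139 CPM (137 to 141) here, a log2 ratio of 0.21 (0.17 to 0.24). Of the wider lists, 2 of 32 ATF4 targets were past 2-fold higher and 1 lower, from Cdsn at 2.11 to Fgf21 at −1.25, and all 17 tRNA synthetases were above 0 without any past 2-fold, with a median of 0.20.

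In organoid epithelium, 2 members were below 0. Psat1 had 23.6 CPM (22.5 to 24.7) in normal and 15.0 CPM (14.0 to 16.0) in fibrogenic organoids, a log2 ratio of −0.66 (−0.78 to −0.54), and Mthfd2 16.6 and 15.4 CPM, a ratio of −0.10 (−0.23 to 0.03) whose interval included 0. Chac1 was 2.73 and 3.90 CPM, a ratio of 0.51 (0.23 to 0.79), but in AEC2s it was 2.51 and 2.22 CPM and in cycling epithelium 2.11 and 1.14 CPM. Transitional PATS cells, where Chac1 was higher, were 10.4% of normal and 18.9% of fibrogenic epithelium, and cycling cells 232 of 1778 and 134 of 1679 cells, and the part of these shares in the Chac1 and Psat1 ratios was not tested. Ppp1r15a was 49.6 and 61.5 CPM, a ratio of 0.31 (0.24 to 0.38). Atf4 was 152 and 158 CPM, a ratio of 0.05 (0.01 to 0.09). Of 31 other ATF4 targets 2 were past 2-fold higher (3.1% of all genes), with Bcat1 highest at 1.87 and Slc7a11, the cystine transporter, lowest at −0.80.

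Between FBs and epithelial cells of the same library, 8 members differed by more than they did between organoids, and Atf4 and Ppp1r15a did not. Asns was 121 CPM in FBs and 19.9 CPM in epithelium of normal organoids, a log2 ratio of 2.60 (2.52 to 2.68), and 2.61 (2.53 to 2.70) in fibrogenic organoids. Atf5 was 159 and 19.4 CPM, a ratio of 3.04 (2.96 to 3.11), and 2.97 (2.89 to 3.06) in fibrogenic organoids. Mthfd2 (1.88 and 2.14), Phgdh (1.55 and 1.92) and Ddit3 (1.35 and 1.17) were higher in FBs in both libraries. Atf4 (0.05 and 0.12) and Ppp1r15a (0.13 and 0.01) were nearly level between the cell types. In all, 6 and 7 of 10 members were past 2-fold higher in FBs of the normal and fibrogenic library, against 22.6% and 21.5% of all genes, and none was past 2-fold lower (21.2% and 22.4%).

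Within the epithelium, cells were divided by markers into AEC2s, type 1 cells (AEC1s, the flat cells of gas exchange) and transitional cells with keratins (PATS, pre-alveolar type 1 transitional state). Cells with both AEC1 and PATS markers past the limits (44 in normal and 95 in fibrogenic organoids) were kept apart from both. PATS cells, so without them, stood out for Phgdh and Psat1, which were opposed although their enzymes act in the same pathway. Phgdh had an interval of 18.7 to 21.3 CPM in AEC2s (898 UMIs) and was 91.7 CPM (84.9 to 99.0) in PATS cells of normal organoids, a log2 ratio of 2.20 (2.05 to 2.34), and 2.15 (2.00 to 2.29) in fibrogenic ones. Psat1 was 19.8 CPM (18.5 to 21.1) in AEC2s and 4.41 CPM (3.02 to 6.23) in PATS cells, a ratio of −2.16 (−2.72 to −1.65), and −1.26 (−1.74 to −0.82) in fibrogenic organoids. The cells with both AEC1 and PATS markers did not share the low Psat1. They had 27.7 CPM (19.7 to 37.8) in normal and 16.6 CPM (12.5 to 21.6) in fibrogenic organoids, where AEC2s had 12.4 CPM. Their Phgdh was 46.8 and 68.4 CPM. Asns was higher in PATS cells at 1.10 (0.90 to 1.30) and 1.38 (1.18 to 1.57), and Chac1 at 0.98 (0.40 to 1.53) and 2.25 (1.79 to 2.71). The share of all genes past 2-fold was 21.4% higher and 15.5% lower in normal and 18.4% higher and 16.1% lower in fibrogenic organoids, so differences of this size were common between these cells.

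Between organoids, Chac1 in PATS cells was 4.97 CPM (36 UMIs) and 10.5 CPM (94 UMIs), a log2 ratio of 1.08 (0.52 to 1.68), and Ddit3 in PATS cells 25.7 and 43.4 CPM, a ratio of 0.76 (0.50 to 1.02). In AEC1s of fibrogenic organoids, Ddit3 was 1.10 (0.55 to 1.65) and Asns 1.08 (0.46 to 1.72), from 52 against 64 and 41 against 50 UMIs in 109 and 87 cells, and Psat1 was −1.04 (−1.73 to −0.40). In AEC2s no member passed 2-fold (3.33% of all genes higher, 1% lower), and Psat1 was −0.68 (−0.85 to −0.50). In PATS cells Psat1 was 4.41 and 5.15 CPM, a ratio of 0.22 (−0.46 to 0.92), and it was 46.3 (42.7 to 50.1) and 45.5 CPM (40.3 to 51.2) in cycling epithelium, with overlapping intervals. The share of all genes past 2-fold was 1.62% higher and 1.3% lower in PATS cells and 1.72% and 1.87% in AEC1s. Within a library, Mthfd2 was lower in AEC1s than in AEC2s, at 3.38 CPM (11 UMIs) against 14.5 CPM in normal organoids, a log2 ratio of −2.10 (−3.11 to −1.25), and at 6.41 CPM (12 UMIs) against 13.5 CPM in fibrogenic ones, a ratio of −1.07 (−2.03 to −0.25). Of all genes, 10.6% and 9.66% were past 2-fold lower in AEC1s there.

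Dividing cells need serine and one-carbon units for nucleotides, and the members were compared between cells with and without proliferation markers. Among organoid FBs, Phgdh was 0.90 (0.84 to 0.96) and 1.04 (1.00 to 1.08) higher on the log2 scale in cycling cells of normal and fibrogenic organoids, and Psat1 0.95 (0.85 to 1.04) and 1.20 (1.14 to 1.27). In epithelium Phgdh was 1.02 (0.90 to 1.14) and 0.63 (0.46 to 0.79), and Psat1 1.30 (1.15 to 1.44) and 2.01 (1.80 to 2.22). Mthfd2 was between 0.62 and 1.10 in these 4 comparisons. Ppp1r15a (−0.31 to −0.65) and Ddit3 (−0.46 to −0.86) were below 0 in all 4, and Asns had no common direction, from 0.45 (0.40 to 0.49) in fibrogenic FBs to −0.61 (−0.93 to −0.31) in fibrogenic epithelium. Chac1 in fibrogenic epithelium, at −1.89 (−3.22 to −0.82), rested on 7 UMIs in cycling cells.

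By count, 0 and 2 of 10 members were past 2-fold higher in cycling FBs (6.96% and 6.62% of all genes) and 3 and 2 of 10 in cycling epithelium (5.54% and 7.1%). None was past 2-fold lower in cycling FBs (4.46% and 5.88%), and 0 and 1 in cycling epithelium (8.39% and 11.2%). In the lung libraries 0, 17, 3 and 27 FBs were cycling, below the 50 cells set for this comparison. After 3 doses of bleomycin Asns was 28.7 CPM (17.3 to 44.8) in cycling and 4.92 CPM in other FBs. Mthfd2 was 66.5 and 8.90 CPM there, and Psat1 42.3 and 3.43 CPM. After a single dose Psat1 was 66.4 CPM (22 of 118 UMIs) and 9.83 CPM. Asns, with 1 UMI in those cycling FBs, was 3.02 and 7.88 CPM. The part of cycling cells alone in the lung FB ratios was not tested.

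Over single organoid cells, the enzymes varied together in FBs. Each cell was thinned to 20000 UMIs to remove the depth gap, which left 1807 and 1834 FBs and 1509 and 1128 epithelial cells of normal and fibrogenic organoids, and rank correlations were averaged over 20 thinnings. In FBs the correlation of Asns with Phgdh was 0.50 and 0.61, of Phgdh with Psat1 0.40 and 0.52, and of Asns with Mthfd2 0.43 and 0.48. Of the 45 pairs of members, 11 and 12 reached 0.3, and the same numbers did with cycling FBs left out. Ppp1r15a was apart from the rest, with correlations of 0.04 to 0.19 and 0.04 to 0.17 with the other 9. Atf4 with Ddit3 was 0.28 and 0.25.

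In epithelium no pair reached 0.3, and Asns with Phgdh was 0.19 in each library. The counts behind these values were lower there, with a mean of 0.39 and 0.46 Asns UMIs per thinned epithelial cell against 2.24 and 2.65 per thinned FB. The lower correlations in epithelium are therefore no finding. The values are descriptions over cells that share 1 culture library, and carry no test.

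**Figure D5:**
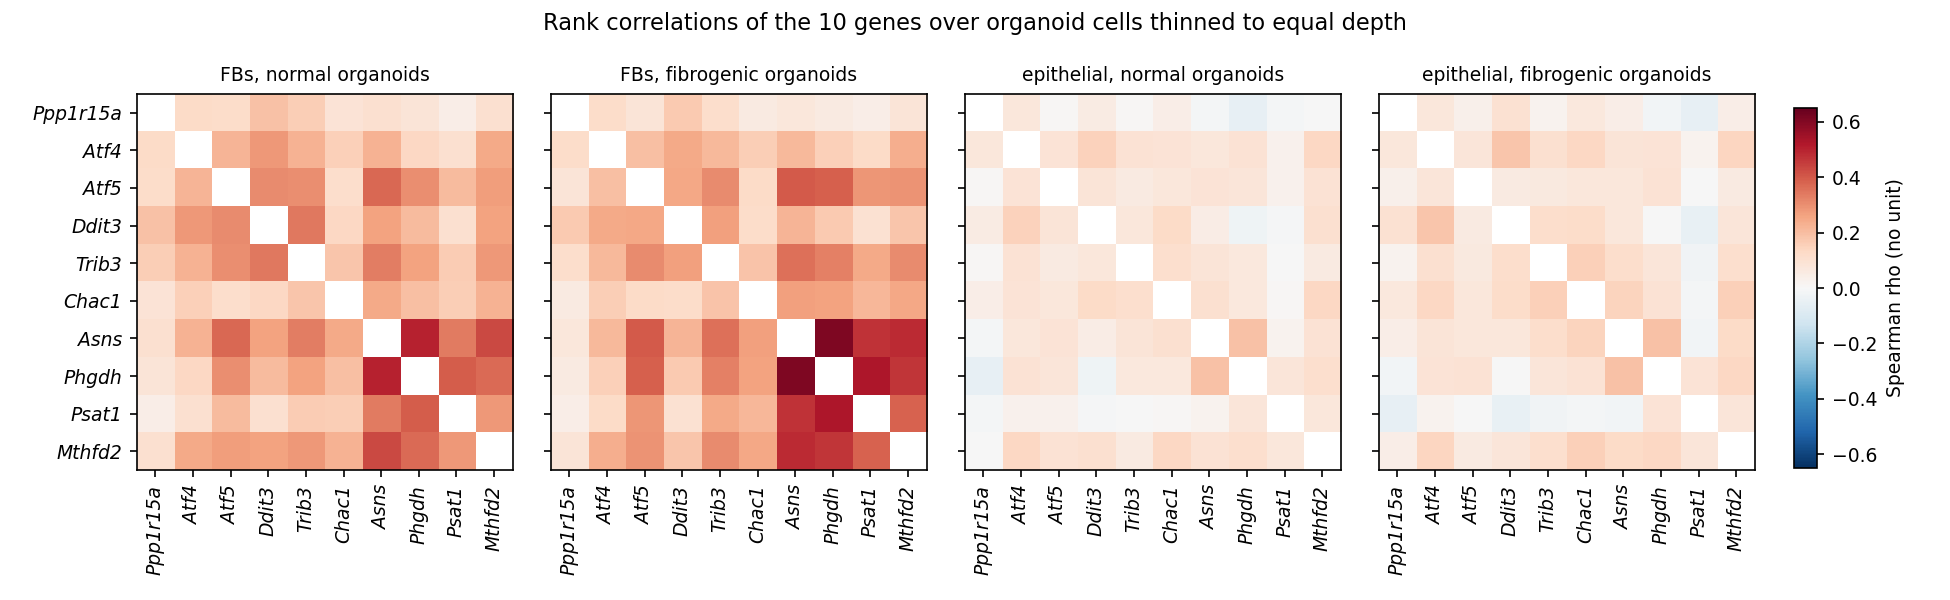
Spearman rank correlation (color scale, no unit) of each pair of the 10 genes over FBs and epithelial cells of normal and fibrogenic organoids, each cell thinned to 20000 UMIs. The block of Asns, Phgdh, Psat1 and Mthfd2 was darkest in FBs, with Asns and Phgdh at 0.50 and 0.61, and Ppp1r15a was pale throughout.

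Only Atf4, Atf5 and Ddit3 had at least 20 UMIs in all 27 lung FB and organoid groups over which patterns were compared. Across these groups, which share 6 libraries, the log2 CPM of Ddit3 ran with that of Atf5 (r = 0.92), whereas Atf4 did not run with either (r = 0.08 with Atf5 and −0.07 with Ddit3). The groups hold both FBs and epithelium, which lay apart for Atf5 and Ddit3. Atf5 was 61.1 to 473 CPM in the FB groups and 12.3 to 28.8 CPM in the epithelial ones. Ddit3 was 49.0 to 109 CPM and 16.0 to 43.4 CPM. The part of this gap in the correlations was not tested. The genes most like Atf5 among 2861 were Ifitm2 (0.96), Ifitm3 (0.95) and Plpp3 (0.94), and those most like Ddit3 were Atf5 (0.92), Plpp3 (0.91) and Impact (0.90). For Atf4 they were Dohh (0.84), Fbl (0.84) and Rps16 (0.83).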

How the data were processed

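The data were 6 droplet single-cell RNA libraries, with 1 for each condition. The authors aligned the reads with Cell Ranger (3.0.1 in the submitters' processing notes, with mm10 as the build) and deposited UMI counts per gene symbol and cell barcode, without normalization. Per the deposited tables, the single-dose libraries had 30830 (PBS) and 30828 (bleomycin) gene rows and the others 32285.

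Counts were read with Python 3.11.15, NumPy 2.4.6 and SciPy 1.17.1, and plots were made with Matplotlib 3.10.9. Barcodes with at least 1000 UMIs and at most 10% mitochondrial UMIs were kept. Cells were gated on summed markers per 10000 UMIs. At least 3 markers had to be detected for FBs, epithelium, other cell types and cycling cells, and 2 for MyoFBs. The LipoFB, MatrixFB, AEC2, AEC1 and PATS gates used the sum and set no number of detected markers. LipoFBs and MatrixFBs were taken from FBs that were neither cycling nor MyoFBs. AEC2s, AEC1s and PATS cells were not cycling and each passed only their own limit of these gates. The limits were 10 for each other cell type, 30 for FBs, 5 for epithelium, 50 for LipoFBs and MatrixFBs, 40 for MyoFBs, 5 for cycling cells, 400 for AEC2s and 40 for AEC1s and PATS cells. These limits were set after the data were seen. A LipoFB or MatrixFB had the larger of its marker sums above the other's, and cells with both FB and epithelial markers were left out. No doublet caller was run, so other doublets remain.

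UMIs were summed per gated group and divided by its total. Levels have exact 95% Poisson intervals, and log2 ratios of CPM have exact conditional binomial intervals. UMIs are taken as independent molecules, so these cover counting error only. Genes with at least 20 UMIs in both groups together were compared, and called when past 2-fold. A fold against 0 UMIs was computed against 3 UMIs. No test between conditions was possible with 1 library each, and no p-value was computed. The interval code was checked on simulated counts.

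In the comparisons of all lung FBs between PBS and bleomycin, all 10 genes were named, and of each of 6 other lists the highest and lowest ratio. In the other comparisons only some genes and lists were named. For likeness, the 3 genes with the highest correlation of log2 CPM were named. The myeloid, endothelial and T cell values, and members named elsewhere, were picked after their values were seen. The genes and lists were chosen with earlier results of these data known. Promoters are RefSeq's.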

Additional observations from a re-analysis of the deposited data

Results flagged for a closer look

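Psat1 had opposite directions in the cell types of the organoids, each with an interval that left out 0. Between fibrogenic and normal organoids the Psat1 log2 ratio was −0.66 in epithelial cells, from 23.6 to 15.0 CPM, and 0.57 in FBs, from 40.6 to 60.4 CPM. Each value compares 1 culture library with 1 other, and the difference between the cell types was not tested. Cycling cells, with 46.3 and 45.5 CPM of Psat1, were 232 of 1778 epithelial cells in normal and 134 of 1679 in fibrogenic organoids, and PATS cells, with 4.41 and 5.15 CPM, were 10.4% and 18.9%. The part of these shares in the epithelial ratio was not tested. Over all barcodes, which mixes FBs with epithelium and so compares neither cell type, the Psat1 ratio was 0.49. The other alternatives for epithelial cells kept it below 0.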

How the results depend on the processing

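No paired analysis was possible because each condition has 1 library, and for the same reason no library could be left out. The alternatives were run for 10 comparisons, those of lung FBs and of organoid FBs and epithelium between libraries, of MyoFBs with LipoFBs and of cycling with other cells. The other comparisons have none. Over these 10, 947 of 961 values of single members under an alternative kept their direction, as did all 297 values of members that were past 2-fold, of which 271 stayed past it. These totals include settings that change only the UMIs a gene needs or the fold limit. Such settings leave a ratio as it was, so for them no direction could change and no ratio past 2-fold could be lost. In single-dose FBs, 7 members were past 2-fold and 2 were so among FBs with a high share of immediate early genes (9.45% of all genes higher, 8.99% lower). In repetitive FBs, 6 were past 2-fold, and 3 with 1 CPM added to each level. Among repetitive FBs with a low share of immediate early genes 3 were (12% of all genes higher, 4.79% lower). Among those with a high share 1 was (7.17% higher, 3.76% lower). In the high single-dose group fewer members had 20 UMIs. In the low and high repetitive groups Chac1 alone fell below 20 UMIs. Ppp1r15a and Mthfd2 were within 2-fold in both of these repetitive groups, and Atf5 and Phgdh in the high one. In organoid epithelium none was past 2-fold and 1 was past 1.5-fold. For MyoFBs over LipoFBs after a single dose, 2 were past 2-fold, 5 with genes of at least 1 UMI, 1 with at least 100 UMIs and 1 with the gates' limits doubled. After 3 doses 3 were past 2-fold, 1 with at least 100 UMIs, and 6 were past 1.5-fold. For cycling over other FBs of normal organoids none was past 2-fold, 1 was with the limits doubled, and 4 were past 1.5-fold. In cycling FBs and cycling epithelium of fibrogenic organoids 2 and 3 were past 2-fold and 4 and 7 past 1.5-fold. The cause of these changes was not tested. Apart from the immediate early groups, the share of all genes under these alternative settings is not given here. The members' counts at 1.5-fold and under those settings can therefore not be read against all genes. Other alternatives were at least 3000 UMIs per barcode, no mitochondrial filter, all barcodes, the mean of each cell's CPM, centering on the median gene, FBs without MyoFBs and cycling cells, and leaving out the bleomycin cell with most UMIs of a gene (chosen, like the split by immediate early genes, after seeing the data). Asns, Chac1 and Trib3 counts in lung FBs were low, and the spread between mice is unknown. All barcodes mix the cell types in organoids.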
